A study of Mus musculus with 7 samples.

Results

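The 9 genes described here carry Hedgehog and parathyroid hormone-related protein (PTHrP) signalling, and were measured in mouse tendon, cut and intact. They are the ligand genes Ihh and Pthlh, the receptor genes Ptch1, Smo and Pth1r, the hedgehog antagonist gene Hhip, and the transcription factor genes Gli1, Gli2 and Gli3. They were chosen by name as the loop that paces the growth plate, and they are 9 of the 42689 genes counted. The 7 RNA sequencing libraries came from hindlimb tendon of mice of C57BL/6 background, in a study concerned with the kinase TAK1 and with heterotopic ossification, the formation of cartilage and bone in soft tissue. Of the 7 libraries, 5 came from mice that had received both a burn over the back, for which a metal block heated to 60 °C was applied during 18 s to 30% of body surface, and a cut through the Achilles tendon of 1 hindlimb. Of these 5, 2 were from the tenotomy site and 3 from the uncut tendon of the opposite hindlimb (contralateral), all 3 weeks after injury. The other 2 libraries were from tendon of uninjured mice with neither burn nor tenotomy. The labels used here give no mutant allele and no drug for any group, and no age, sex or dissection margin, and they do not say whether the libraries of a group came from separate mice. The p-values below therefore measure the spread between these libraries, which may be technical.

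In cartilage of the growth plate, prehypertrophic chondrocytes secrete Indian hedgehog, the product of Ihh. Hedgehog ligand binds the receptor encoded by Ptch1 and so releases the membrane protein encoded by Smo, which signals through the primary cilium to the Gli factors. Gli2 acts mainly as the activator, Gli3 mainly as a repressor when the signal is off, and Gli1, Ptch1 and Hhip are themselves transcribed in response to the signal, so that their RNA is often read as a sign of it. Ptch1 and Hhip both bind ligand and restrain the pathway. In the growth plate, hedgehog signalling keeps Pthlh transcribed in periarticular and resting cells, and PTHrP acting on the receptor encoded by Pth1r holds chondrocytes in the proliferating state and delays the step at which they make Ihh. Hedgehog signalling also operates in the cells of the tendon insertion.

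Library totals ranged from 25927171 to 36725106 estimated counts, but 5 features (Gm42418, Lars2, Mir6236, mt-Rnr2 and 1 unmatched transcript) held 76.4% to 81.4% of them. That left 4934057 to 8375626 counts for all other genes, and the genes described here had between 0 and 241 counts in any library. Values are given as CPM (counts relative to the TMM-scaled size of the library), so their low size reflects those 5 features as well as the genes themselves. The first uninjured library stood apart from the second: its summed skeletal muscle markers were at 903 CPM against 6667 CPM, its macrophage and leukocyte markers at 123 against 33.9 CPM, and its Col2a1 at 16.6 against 1.55 CPM. Tenotomy libraries had 749 to 752 CPM of muscle and 119 to 121 CPM of macrophage and leukocyte markers, near the first uninjured library. Contralateral libraries had 6468 to 8862 and 27.2 to 33.5 CPM, near the second. Col2a1 in the first was still far below the tenotomy libraries (126 and 125 CPM). The cause of this was not tested, and the label was kept. Comparisons of the genes described here with uninjured tendon are therefore given with and without each uninjured library. In bulk tissue, fewer cells of a type and less RNA per cell cannot be told apart.

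At the tenotomy site, transcripts of the receptor and transcription factor genes Ptch1, Smo, Gli1, Gli2 and Gli3 were higher than in contralateral tendon, by 1.38-fold for Ptch1 to 3.36-fold for Gli1. Neither ligand gene of the loop was called: Ihh was at or near 0 counts everywhere, and Pthlh had a fold change near 1. Of the 9 genes, 8 had enough counts to be tested, and 5 of these 8 were called higher and 0 lower by edgeR's quasi-likelihood test at an adjusted p under 0.05. Among all 16028 genes tested, 29% were called, and 13.6% were called higher. The median log2 fold change of the 8 genes was 0.86, against -0.0012 over all genes tested.

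**Figure D1:**
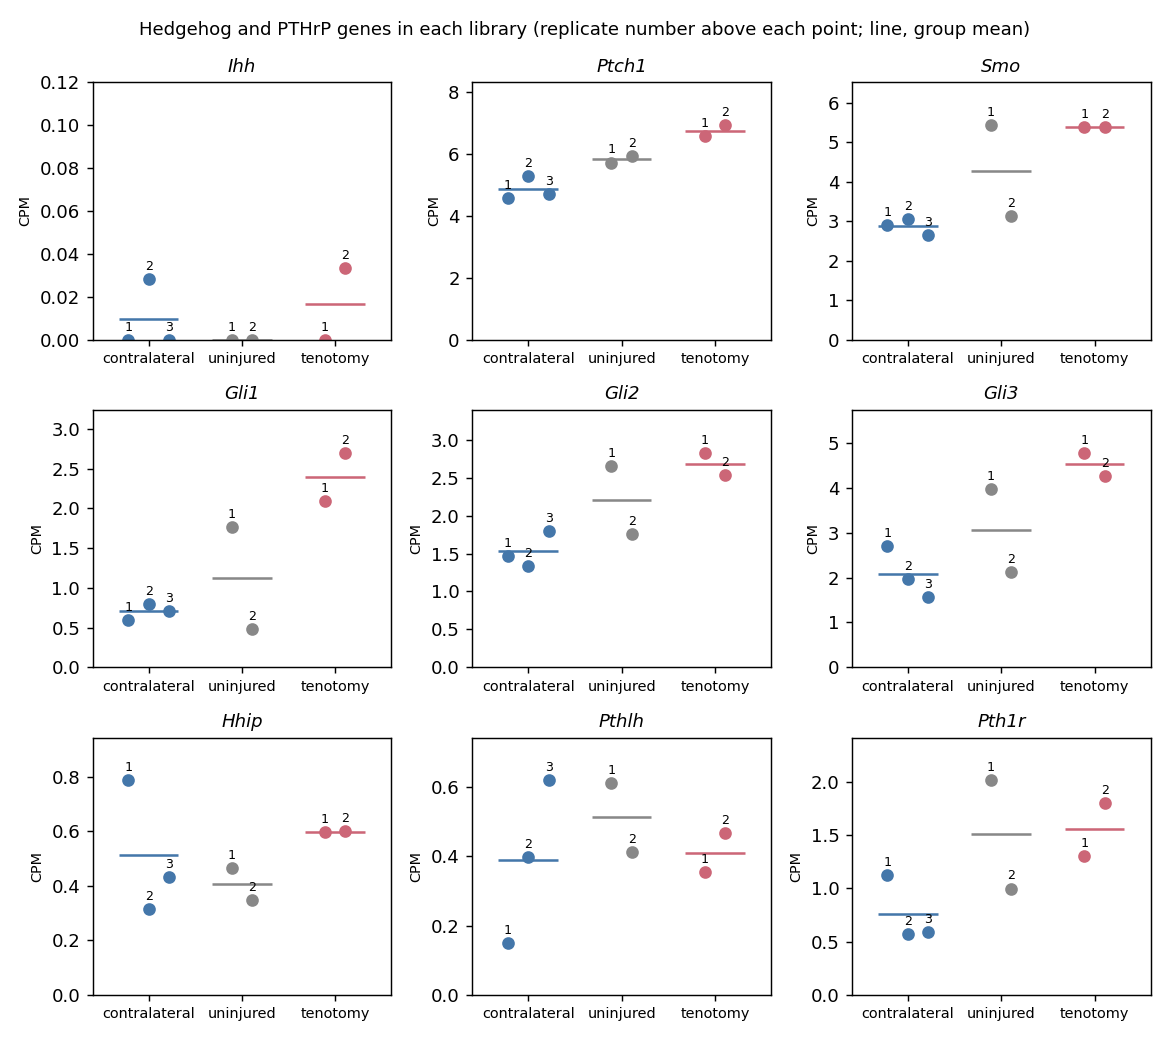
CPM (linear axis from 0) of the 9 genes in each of the 7 libraries, 1 panel per gene, with a point for each library, its replicate number above it and a line at each group mean. For Ptch1, Smo, Gli1, Gli2, Gli3 and Pth1r both tenotomy libraries lie above all 3 contralateral libraries, and the uninjured libraries are far apart for Gli1 (1.76 and 0.482 CPM).

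Ihh (gene ENSMUSG00000006538, chromosome 1, 74945315 to 74951672, minus strand, GRCm38) encodes the hedgehog ligand of cartilage. It had 2 counts in all 7 libraries together, 1 in the second contralateral library and 1 in the second tenotomy library, and 0 counts in the other 5. Both counts were assigned to a transcript that retains an intron, and the protein-coding transcript had 0. A count of 0 allows up to 3 counts, which is 0.0816 to 0.112 CPM in the 5 libraries with 0 counts, so Ihh was not detectable above that level there. The 2 libraries with 1 count, at 0.0285 and 0.0333 CPM, have higher limits, which are not given. No fold change is given for Ihh. Such limits cover counting error only.

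The 2 other mammalian hedgehog ligand genes, Shh and Dhh, were measured beside Ihh. Sonic hedgehog, from Shh, had 1, 5 and 4 counts in contralateral, 4 and 6 in tenotomy, and 10 and 2 in uninjured libraries, which was too few for the test. Desert hedgehog, from Dhh, which Schwann cells of peripheral nerve make, was at 0.974, 1.05 and 0.526 CPM in contralateral, 0.816 and 0.767 CPM in tenotomy, and 0.862 and 1.17 CPM in uninjured libraries. The groups overlapped, and the log2 difference between tenotomy and contralateral was -0.10 (95% interval -0.87 to 0.67, adjusted p = 0.849 by edgeR). Schwann cell markers summed to 75.1 to 87.5 CPM in contralateral and 59.4 to 59.8 CPM in tenotomy libraries.

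Ptch1 (ENSMUSG00000021466, chromosome 13, 63508328 to 63573598, minus strand) encodes the ligand receptor. It was at 4.57, 5.29 and 4.70 CPM in contralateral, 6.57 and 6.92 CPM in tenotomy, and 5.71 and 5.92 CPM in uninjured libraries. The 3 groups did not overlap: contralateral was lowest, tenotomy highest, and both uninjured libraries lay between them. Tenotomy exceeded contralateral by 0.47 on the log2 scale (SE 0.13, adjusted p = 0.0362 by edgeR), the smallest difference among the 5 called genes. With DESeq2 the adjusted p for Ptch1 was 0.118, and with no filter on low counts it was 0.112.

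Smo (ENSMUSG00000001761, chromosome 6, 29735503 to 29761365, plus strand) encodes the signal-passing membrane protein that Ptch1 holds in check. Its values were 2.91, 3.06 and 2.66 CPM in contralateral, 5.38 and 5.38 CPM in tenotomy, and 5.43 and 3.13 CPM in uninjured libraries. Both tenotomy libraries were above all contralateral libraries, and 1 uninjured library lay at the tenotomy level and 1 near the contralateral level. The log2 difference between tenotomy and contralateral was 0.91 (SE 0.22, adjusted p = 0.0237 by edgeR).

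Gli1 (ENSMUSG00000025407, chromosome 10, 127329882 to 127341974, minus strand), the transcriptional target and amplifier of the pathway, showed the largest difference of the 8 tested genes. It had 16, 28 and 23 counts in contralateral libraries, or 0.600, 0.797 and 0.711 CPM, and 77 and 81 counts in tenotomy libraries, or 2.09 and 2.70 CPM. The uninjured libraries had 49 and 14 counts, or 1.76 and 0.482 CPM. Tenotomy exceeded contralateral in both libraries, by 1.75 on the log2 scale (SE 0.44, 95% interval 0.73 to 2.77, adjusted p = 0.0242 by edgeR), while the uninjured libraries fell on both sides of the contralateral range. In GENCODE M21, exons of Gli1 share 62 of 4057 exon bases with Arhgap9 on the opposite strand. The Gli1 transcript that was counted is 3665 bases long, so it differs from M21 and may not hold all shared bases. Arhgap9 had 5, 12 and 5 counts in contralateral and 22 and 20 in tenotomy libraries, and whether the counting used strand is not given in the sources used here, so reads from the shared bases cannot be told apart.

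Gli2 (ENSMUSG00000048402, chromosome 1, 118834132 to 119053619, minus strand) was at 1.46, 1.34 and 1.79 CPM in contralateral, 2.83 and 2.53 CPM in tenotomy, and 2.66 and 1.75 CPM in uninjured libraries. Gli3 (ENSMUSG00000021318, chromosome 13, 15463235 to 15730026, plus strand) was at 2.70, 1.96 and 1.58 CPM in contralateral, 4.79 and 4.27 CPM in tenotomy, and 3.99 and 2.13 CPM in uninjured libraries. The main activator and the main repressor of the family thus had the same order of groups, with tenotomy above contralateral and no overlap between those groups. The log2 difference was 0.81 for Gli2 (SE 0.22, adjusted p = 0.0326) and 1.13 for Gli3 (SE 0.30, adjusted p = 0.0282), both by edgeR. Whether the 3 Gli genes differed from each other in their response was not tested.

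Hhip (ENSMUSG00000064325, chromosome 8, 79965851 to 80058006, minus strand) encodes a membrane-bound antagonist that takes up hedgehog ligand. It had 10 to 22 counts per library, and was at 0.787, 0.315 and 0.433 CPM in contralateral, 0.598 and 0.600 CPM in tenotomy, and 0.467 and 0.346 CPM in uninjured libraries. The tenotomy libraries lay inside the contralateral range. The log2 difference was 0.26 (95% interval -0.69 to 1.21, adjusted p = 0.667 by edgeR), an interval that takes in the differences of Ptch1, Smo, Gli2 and Gli3 but not that of Gli1. The interval of Gli1 itself, 0.73 to 2.77, overlaps that of Hhip, and whether Hhip differed from Gli1 was not tested. Hhip, which like Ptch1 and Gli1 is known as a hedgehog target, was not called.

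Pthlh (ENSMUSG00000048776, chromosome 6, 147252101 to 147264183, minus strand) encodes PTHrP. It had 4, 14 and 20 counts in contralateral, 13 and 14 in tenotomy, and 17 and 12 in uninjured libraries, which is 0.150 to 0.618 CPM over all 7. The groups overlapped fully, and the log2 difference between tenotomy and contralateral was 0.03 (95% interval -1.20 to 1.27, adjusted p = 0.972 by edgeR). The contralateral libraries alone spread over more than the distance between any group means.

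Pth1r (ENSMUSG00000032492, chromosome 9, 110722085 to 110747145, minus strand), the PTHrP receptor gene, was at 1.12, 0.569 and 0.588 CPM in contralateral, 1.31 and 1.80 CPM in tenotomy, and 2.01 and 0.998 CPM in uninjured libraries. Tenotomy libraries lay above all contralateral ones, the highest of which came close. The log2 difference of 1.05 (SE 0.40, 95% interval 0.11 to 1.98) had an unadjusted p of 0.0324 and an adjusted p of 0.0849 by edgeR, so Pth1r was not called. Of all genes tested, 43.3% had an unadjusted p under 0.05 in this comparison. In a fit of only the tenotomy and contralateral libraries its adjusted p was 0.0135. With Pth1r, 6 of the 8 tested genes had every tenotomy library above every contralateral library, which was so for 31.9% of all genes tested.

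When all 7 libraries were fitted together, the calls for the 5 genes, like those for all other genes, rested on every contralateral and tenotomy library. In the fit of all 7 libraries, leaving out any 1 contralateral or tenotomy library left 0 of the 8 genes and 0 of all genes at an adjusted p under 0.05 by edgeR, with 4538 to 6148 genes at an unadjusted p under 0.05. The adjusted p of the 5 genes then ran from 0.0501 to 0.211, and all 5 log2 differences stayed positive. In fits of the tenotomy and contralateral libraries alone, which leave out the uninjured pair and its wide spread, 6 of the 8 genes were called, against 46.1% of all genes, and 4 to 6 after leaving out 1 library, against 32.1% to 48.4% of all genes in those fits.

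**Figure D2:**
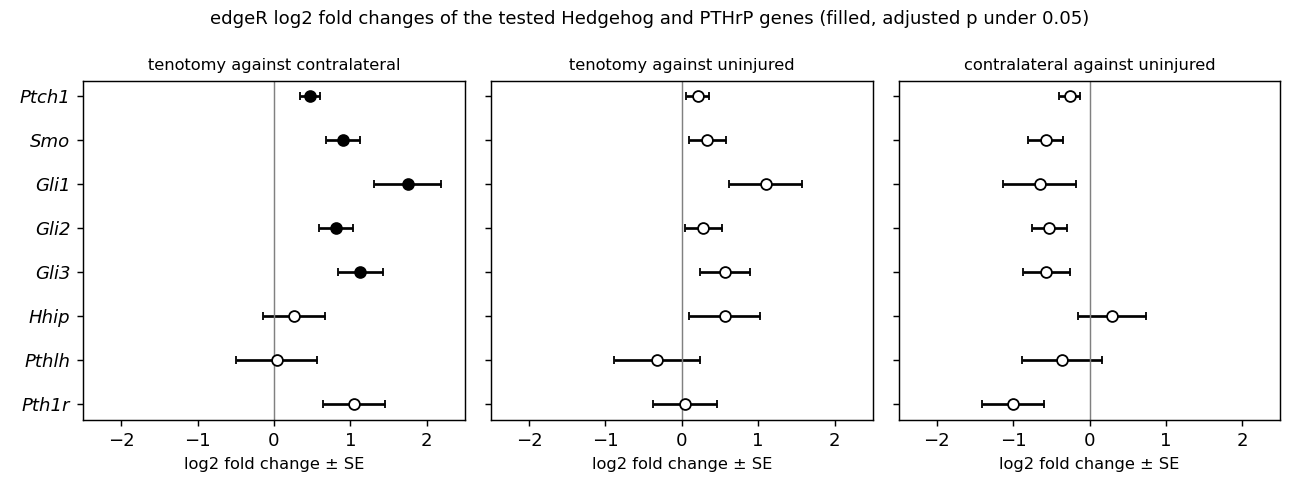
Log2 fold change of the 8 tested Hedgehog and PTHrP genes in the 3 comparisons, with bars of 1 standard error and filled points for an adjusted p under 0.05. The standard errors were derived from the F statistic of the test in the fit of all 7 libraries. For tenotomy against contralateral tendon the points of Ptch1, Smo, Gli1, Gli2 and Gli3 are filled, and Hhip (0.26) and Pthlh (0.03) lie near 0.

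The next comparison sets the tenotomy site against tendon of mice labelled as having no burn and no tenotomy. None of the 8 genes was called: 0 of 8, and 0% of all 16028 genes, passed by edgeR, with 0 of the 8 and 10.9% of all genes at an unadjusted p under 0.05, and 145 genes called by DESeq2, which gave the 8 genes no adjusted p here. Gli1 had the largest log2 difference, 1.10 (SE 0.47, 95% interval -0.0039 to 2.20, adjusted p = 0.461), with tenotomy at 2.40 ± 0.43 CPM (SD, n = 2) and uninjured at 1.12 ± 0.90 CPM (SD, n = 2). Smo differed by 0.34 (adjusted p = 0.601), Gli3 by 0.57 (adjusted p = 0.526) and Pth1r by 0.04 (adjusted p = 0.975), all by edgeR.

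These values depended on which uninjured library was used. Without the first uninjured library, Smo (log2 difference 0.79, adjusted p = 0.00578), Gli1 (2.30, adjusted p = 0.000388) and Gli3 (1.09, adjusted p = 0.00987) were called higher at the tenotomy site, 3 of 8 against 11.4% of all genes. Without the second, 0 of 8 were called, against 0.0593% of all genes called higher, and the log2 difference was 0.44 for Gli1 (adjusted p = 0.918), 0.19 for Gli3, 0.02 for Gli2, -0.01 for Smo and -0.38 for Pth1r. The first uninjured library thus had Smo, Gli2 and Pth1r at or above the level of a tenotomy library, and the second had them nearer to contralateral tendon. With 1 library left in the group, its spread is assumed to be that of the other groups.

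The last comparison sets the contralateral tendon of injured mice against tendon of uninjured mice, which asks whether injury elsewhere went with a change in intact tendon. Of the 8 tested genes 7 had lower means in contralateral tendon. The median log2 difference of the 8 was -0.54, against -0.012 over all genes tested. By edgeR, 0 of 8 and 0% of all genes were called. At an unadjusted p under 0.05 there were 2 of the 8 and 19.2% of all genes, and DESeq2 called 223 genes, with 0 of the 8 among them and an adjusted p for only Ptch1, Smo and Gli3. The 2 were Smo (log2 difference -0.57, unadjusted p = 0.0389, adjusted p = 0.244) and Pth1r (-1.01, unadjusted p = 0.0406, adjusted p = 0.247), and Ptch1 differed by -0.26 (adjusted p = 0.316) with no overlap between the libraries. Without the second uninjured library, 5 of 8 were called lower in contralateral tendon, against 15% of all genes: Smo (-0.91), Gli1 (-1.30), Gli2 (-0.79), Gli3 (-0.96) and Pth1r (-1.44). Without the first, 0 of 8 were called, against 0.311% of all genes called lower, and Gli1 had the opposite sign (0.55, adjusted p = 0.654). The 3 comparisons share libraries, so their values are not independent of each other.

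Levels can be compared between genes only per transcript length, which the deposited TPM (transcript abundances per unit length, scaled to the same total in each library) allow. As means over the libraries of a group, at the tenotomy site Gli2 (0.242 TPM), Smo (0.209 TPM) and Ptch1 (0.205 TPM) were highest and overlapped each other. They were separate from Pth1r (0.108 TPM), Gli1 (0.0967 TPM) and Gli3 (0.0920 TPM), which were in turn separate from Pthlh (0.0416 TPM) and Hhip (0.0310 TPM). In contralateral tendon the order ran from Smo (0.115 TPM) and Ptch1 (0.115 TPM) through Gli2, Pth1r, Gli3, Pthlh and Hhip to Gli1 (0.0290 TPM), and each of these 8 genes overlapped its neighbour in that order. Gli1 was thus last of the 8 in contralateral tendon, and above Pthlh and Hhip with no overlap at the tenotomy site. In uninjured tendon the order was Smo (0.182 TPM), Gli2, Ptch1, Pth1r, Gli3, Pthlh, Gli1 and Hhip (0.0140 TPM), and Ihh was last in all 3 groups. The TPM of a gene sums its listed transcripts, and a count in a short transcript weighs more. For Gli2, the 6637-base Gli2-201 took 88.7% and 79.6% of the counts in tenotomy libraries. The 367-base Gli2-202 took 6 and 5 counts there. The place of Gli2 in these orders therefore rests partly on few counts in short transcripts.

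Ptch1 and Pth1r have coding transcripts with different starts whose estimated shares differed between libraries. The split of reads between transcripts of a gene is itself estimated, so these values are descriptions with no test. Starts and exon bases are those of GENCODE M21, whose version of a transcript can differ from the one counted. Ptch1-201 starts at 63565735 on chromosome 13 and has 375 exon bases that no other listed Ptch1 transcript holds. It took 22.4, 28.5 and 13.0 counts in contralateral, 85.2 and 79.4 in tenotomy, and 31.1 and 0 in uninjured libraries, which is 18.4%, 15.3% and 8.54%, then 35.3% and 38.2%, then 19.5% and 0% of Ptch1. The transcript Ptch1-202, which starts at 63564535 and is known by only 78 bases of its own, took 73.1, 121 and 109 counts in contralateral and 127 and 80.0 in tenotomy libraries. Scaled for library size, Ptch1-201 was at 0.840, 0.811 and 0.401 CPM in contralateral and 2.32 and 2.64 CPM in tenotomy libraries, so most of the higher Ptch1 level at the tenotomy site was assigned to it.

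Pth1r-201 starts at 110742719 on chromosome 9 and has 374 exon bases of its own. It took 0 counts in all 3 contralateral libraries and in the second uninjured library, 19.6 and 21.5 counts in the tenotomy libraries, and 15.4 in the first uninjured library. As a share of Pth1r this was 40.8% and 39.7% at the tenotomy site and 27.5% in that uninjured library. The other listed transcript, Pth1r-202, starts upstream at 110743686, has 286 exon bases of its own, and took 30.0, 20.0 and 19.0 counts in contralateral, 28.4 and 32.5 in tenotomy, and 40.6 and 29.0 in uninjured libraries. The higher Pth1r count in the tenotomy libraries was largely that of Pth1r-201.

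**Figure D3:**
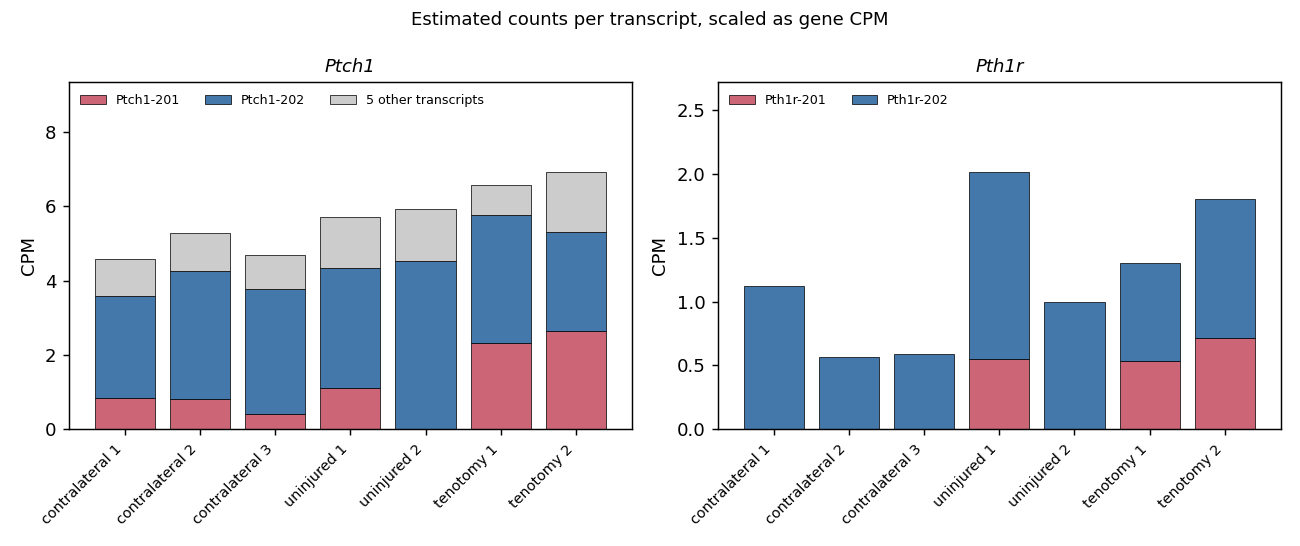
Estimated counts, scaled as CPM, of the listed transcripts of Ptch1 and Pth1r in each library, as stacked bars from 0, with red for Ptch1-201 or Pth1r-201, blue for Ptch1-202 or Pth1r-202 and grey for the 5 other Ptch1 transcripts together. Pth1r-201 appears in both tenotomy libraries and the first uninjured library and is at 0 CPM in the other 4, and Ptch1-201 is tallest in the tenotomy libraries (2.32 and 2.64 CPM).

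The genomic sequence just upstream of these 3 starts is shown because most of the higher Ptch1 and Pth1r levels was assigned to Ptch1-201 and Pth1r-201, with the start of Pth1r-202, the other listed Pth1r transcript, beside them. It is from RefSeq's mouse sequence (GRCm38.p6), minus strand, read 5′ to 3′ and ending 1 base before the start, with no annotated exon base in it. Capitals mark GC boxes, the letters GGGCGG or CCGCCC searched on both strands. The stretches are chr13:63565736-63565985 for Ptch1-201, chr9:110742720-110742860 for Pth1r-201 and chr9:110743687-110743936 for Pth1r-202.
Ptch1-201: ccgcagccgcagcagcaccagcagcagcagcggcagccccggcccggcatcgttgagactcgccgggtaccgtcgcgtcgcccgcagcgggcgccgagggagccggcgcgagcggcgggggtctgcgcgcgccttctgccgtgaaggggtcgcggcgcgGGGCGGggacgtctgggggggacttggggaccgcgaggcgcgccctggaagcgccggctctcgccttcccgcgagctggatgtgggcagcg
Pth1r-201: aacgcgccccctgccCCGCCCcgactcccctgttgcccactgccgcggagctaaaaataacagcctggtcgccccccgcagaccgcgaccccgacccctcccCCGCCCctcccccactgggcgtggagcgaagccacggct
Pth1r-202: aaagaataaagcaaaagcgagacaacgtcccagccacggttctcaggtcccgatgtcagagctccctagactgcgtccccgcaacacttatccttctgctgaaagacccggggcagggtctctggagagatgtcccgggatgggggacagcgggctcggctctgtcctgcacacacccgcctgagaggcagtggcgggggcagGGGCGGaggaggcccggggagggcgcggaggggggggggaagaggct
The bases G and C made up 78.4%, 73.8% and 65.6% of these stretches. A GC box was found in windows of 7 of the 8 genes that had a RefSeq promoter window (250 bases before to 50 after the start), in 8 of 10 windows, and in 35.7% of all 32851 such windows. The Gli site, searched as GACCACCCA or TGGGTGGTC with no mismatch, was in 0 of the 10 windows and in 0.253% of all windows. Such matches describe letters only, and windows of this length leave out most regulatory sequence. Gli1 had no window.

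The other genes of the pathway were taken from lists by role. For tenotomy against contralateral, 29% of all 16028 genes tested were called by edgeR, and 13.6% were called higher. Of 13 genes for hedgehog ligand processing, release and reception, 12 were tested and 4 were higher at the tenotomy site, 0 lower, with a median log2 difference of 0.59. They were Scube2, whose product helps to release ligand (log2 difference 0.97, adjusted p = 0.0297), Hhat, which attaches the palmitate that ligands carry (0.84, adjusted p = 0.0217), Gpc3, a glypican that binds ligand (0.79, adjusted p = 0.0227), and Cdon, a coreceptor (0.76, adjusted p = 0.0167), all by edgeR. Scube2 was not called with DESeq2 (adjusted p = 0.0504) or length-scaled TPM (0.106). Cdon was named after its value was seen.

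Between Smo and the Gli factors, all 18 listed genes were tested, and 4 were higher and 3 lower, against 29% of all genes called. The median log2 difference was 0.11. Kif7, the cilium-tip kinesin that organises Gli proteins (1.25, adjusted p = 0.0241), Dlg5 (1.06, adjusted p = 0.0167) and Iqce, part of a cilium complex that Smo acts through (0.82, adjusted p = 0.0194) were higher by edgeR, as was Gpr161, named after its value was seen, a receptor that holds the pathway off (0.70, adjusted p = 0.0193). With length-scaled TPM, Dlg5 (0.55, adjusted p = 0.170) and Iqce (0.52, adjusted p = 0.250) were not called, and with DESeq2 Kif7 was not (adjusted p = 0.0528). The 3 lower genes act in the phosphorylation and turnover of Gli proteins among many other substrates: Cul3 (-1.30, adjusted p = 0.0175), Prkaca, a catalytic subunit of protein kinase A (-1.22, adjusted p = 0.0225), and Btrc (-0.65, adjusted p = 0.0446 by edgeR, and 0.0519 to 0.1196 under 5 alternatives). Sufu, the main inhibitor of Gli proteins, was at 2.19 ± 0.21 CPM (SD, n = 3) in contralateral and 2.25 ± 0.11 CPM (SD, n = 2) in tenotomy libraries, with a log2 difference of 0.04 (adjusted p = 0.886 by edgeR). Of the 12 genes for transport in the primary cilium 0 were called by edgeR, against 29% of all genes, with a median of 0.30.

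Of 13 genes reported elsewhere as Gli targets, 7 were tested. At the tenotomy site 4 were higher and 1 lower, against 29% of all genes called and 13.6% called higher. Sfrp1, which encodes a secreted Wnt antagonist, was at 2.41, 1.82 and 1.50 CPM in contralateral, 17.1 and 17.9 CPM in tenotomy, and 13.0 and 1.64 CPM in uninjured libraries (log2 difference of tenotomy and contralateral 3.21, adjusted p = 0.0173). The cell cycle genes Foxm1 (2.74, adjusted p = 0.0250), Ccnd1 (1.11, adjusted p = 0.0167) and Ccnd2 (0.53, adjusted p = 0.0297) were higher, and the survival gene Bcl2 was lower (-0.78, adjusted p = 0.0403), all by edgeR. Bcl2 was not called with upper quartile scaling (adjusted p = 0.0580), library totals (0.0787), DESeq2 (0.0700) or length-scaled TPM (0.0802). These target genes respond to many signals, and the source of their differences was not tested. Of the 5 tested genes of a proliferation list, 4 were also higher at the tenotomy site.

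Downstream of the PTHrP receptor, 19 of 22 listed genes were tested, and 2 were higher and 4 lower, with a median of -0.02. Of all genes tested, 29% were called in either direction. Rgs2, a regulator of G protein signalling that rises with cyclic AMP (2.04, adjusted p = 0.0368), and Zfp521, a zinc finger gene downstream of PTHrP in chondrocytes (1.25, adjusted p = 0.0197), were higher. Mef2c, which drives chondrocyte hypertrophy and is also abundant in muscle (-2.40, adjusted p = 0.0167), Adcy9 (-1.41, adjusted p = 0.0167), Mef2d (-1.06, adjusted p = 0.0282) and Pde4d (-0.98, adjusted p = 0.0167) were lower, all by edgeR. With length-scaled TPM, Rgs2 was not called (adjusted p = 0.0739). Gnas, which encodes the stimulatory G protein that couples to the receptor, had a log2 difference of 0.25 (adjusted p = 0.322).

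**Figure D4:**
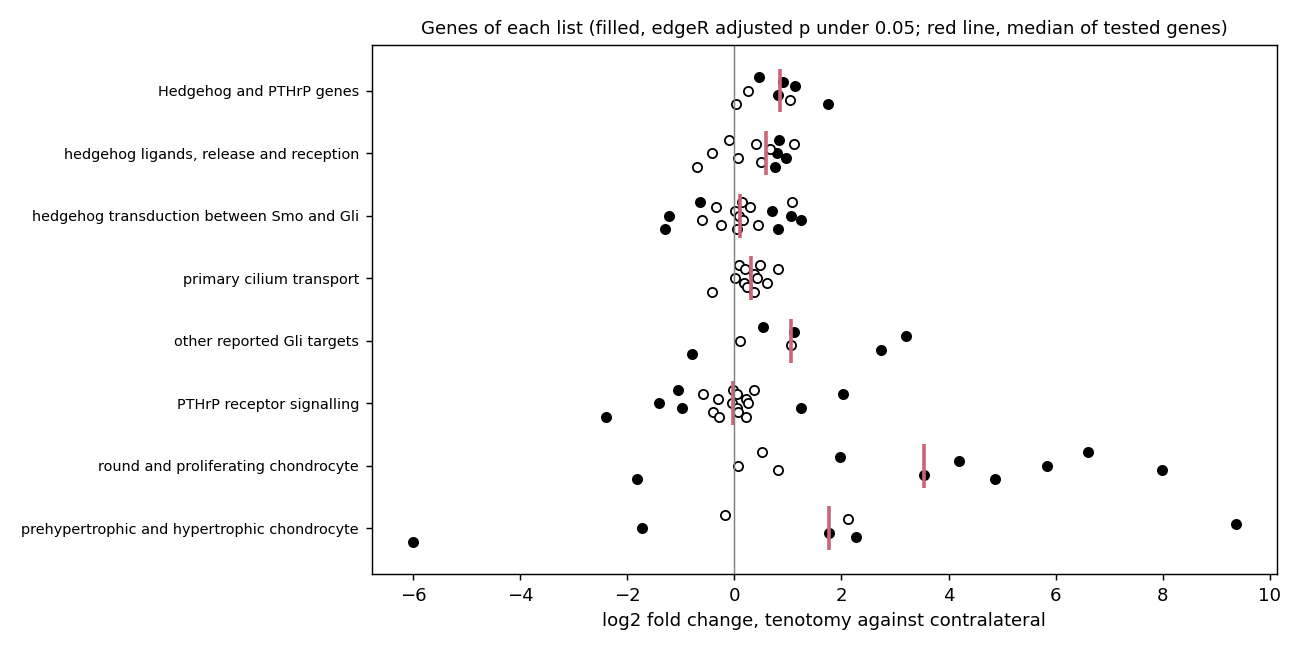
Log2 fold change of tenotomy against contralateral tendon for every tested gene of each list, with a red line at the list's median and filled points for genes called by edgeR at an adjusted p under 0.05. The Hedgehog and PTHrP genes lie between 0.03 and 1.75, cilium genes have no filled point, and Col2a1 is at 7.98. The outermost points, Mmp13 (9.37) and Ibsp (-6.01), are fitted values against groups with 0 to 3 counts per library and are no bounds.

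The cells that use this loop were looked for through markers of its stages. Of 12 genes of round and proliferating chondrocytes, 11 were tested and 7 were higher at the tenotomy site: Col2a1, the main cartilage collagen, was at 126 and 125 CPM there against 0.402 to 0.655 CPM in contralateral tendon, Acan at 80.7 and 86.1 against 0.675 to 1.11 CPM, Matn3, a cartilage matrilin gene, at a mean of 8.71 against 0.149 CPM (log2 difference 5.83, adjusted p = 0.0167 by edgeR), and Sox9 at 7.07 and 7.26 against 1.44 to 2.37 CPM. Sox6, which muscle also expresses, was the 1 lower gene (-1.81, adjusted p = 0.0171 by edgeR). Of 12 genes of prehypertrophic and hypertrophic chondrocytes, the cells that make Ihh, 7 were tested, with 3 higher and 2 lower. The collagenase gene Mmp13 was at 30.2 and 31.1 CPM in tenotomy against 0, 0.0285 and 0.0928 CPM in contralateral libraries (adjusted p = 0.0167 by edgeR, 0.326 by limma-voom), and Runx2 (1.77, adjusted p = 0.0225) and Runx3 (2.27, adjusted p = 0.0167) were higher by edgeR, though not called with length-scaled TPM (adjusted p = 0.0713 and 0.167, Runx3 at 1.41). Alpl was lower (-1.73, adjusted p = 0.0167), as was Ibsp, at 0.0816 and 0.100 CPM against 4.02 to 8.40 CPM. Col10a1, the defining collagen of hypertrophic cartilage, was at 0.487, 0.598 and 0.464 CPM in contralateral and 0.245 and 0.700 CPM in tenotomy libraries, with full overlap (adjusted p = 0.803 by edgeR). For tenotomy against contralateral, 29% of all genes tested were called. With both uninjured libraries in the fit, tenotomy against uninjured and contralateral against uninjured gave 0 calls by edgeR in each of these lists. The same was so over all 16028 genes tested, so these 0 calls do not set the lists apart from other genes. For these lists, fits without 1 uninjured library are not given. The first and second uninjured libraries were far apart for Acan (45.9 and 1.24 CPM), Mmp13 (23.0 and 0.0688 CPM) and Runx2 (3.49 and 1.04 CPM). Ibsp was lower in the first (0.611 and 2.37 CPM), and Col10a1 was at 0.790 and 0.619 CPM.

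Other tissue markers moved in the comparison of tenotomy with contralateral tendon, in which 29% of all genes tested were called. Skeletal muscle markers summed to 6468 to 8862 CPM in contralateral and 749 to 752 CPM in tenotomy libraries, with 9 of 9 called lower. Macrophage and leukocyte markers summed to 27.2 to 33.5 and 119 to 121 CPM (7 of 7 higher), proliferation genes to 3.20 to 3.46 and 13.3 to 14.7 CPM (4 of 5 tested higher), and adipocyte markers to 166 to 225 and 83.5 to 83.7 CPM (3 of 6 lower). Tendon markers summed to 153 to 252 and 318 to 322 CPM, with 3 of 6 higher. In uninjured tendon these sums differed between the libraries, with 903 and 6667 CPM for muscle and 11.8 and 2.73 CPM for proliferation in the first and second library. The part of these tissue differences in the values of Ptch1, Smo, Gli1, Gli2, Gli3 and Pth1r was not tested. Osteoblast and osteocyte markers stayed at 0.887 to 1.67 CPM in all 7 libraries, with Sost at 0 counts, and keratinocyte markers at 0.533 to 1.71 CPM, with Krt1 at 0.

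To place 4 of the genes among all others, the nearest profiles over the 7 libraries were sought among 7184 well-measured genes, by the root mean square difference of centred log2 CPM. Gli1, whose own profile had a spread of 0.86, was nearest to Dock2 (0.17), Hif1a (0.17) and Dock5 (0.18). Dock2, a gene of leukocyte migration, was at 1.54, 1.99 and 1.92 CPM in contralateral, 4.90 and 6.53 CPM in tenotomy, and 5.28 and 1.69 CPM in uninjured libraries. Its likeness to Gli1 follows from the search, which used these same libraries. Pth1r (own spread 0.62) was nearest to Itga10 (0.12), a collagen-binding integrin gene of chondrocytes, then Mgat5 (0.17) and Fgf14 (0.18). Ptch1 (own spread 0.21) was nearest to Pip4k2c (0.04), Txndc11 (0.05) and Mapk1ip1l (0.05), and Hhip (own spread 0.39) to Syde1, Ip6k2 and Ccp110 (0.19 each). The nearest profiles thus lay at a small part of the gene's own spread for Gli1, Pth1r and Ptch1, and at a larger part for Hhip. Hhip had only 10 to 22 counts per library. How near the nearest profile lies for genes in general was not measured.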

How the data were processed

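RNA from 7 libraries of mouse hindlimb tendon was purified with Trizol and a column and made into TruSeq RNA libraries, per the labels' protocols. Per the file headers, the authors' table for each library gives, per transcript, an estimated count and a TPM beside its length and effective length. The deposited estimated counts are not normalized, and the deposited TPM are scaled by effective length. FastQC 0.11.4 and kallisto are named in the submitters' processing notes, as is the human build GRCh38, although the transcript identifiers are mouse Ensembl ones.

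Of 103639 transcripts, 101510 were matched without version to GENCODE M21 (GRCm38), and estimated counts were summed per gene and rounded. Of those matched, 57625 had the same version, so M21 exons and starts can differ from those of the transcripts counted. The 2129 unmatched transcripts stayed single features. Genes were filtered with filterByExpr (minimum count 10), scaled by TMM and tested with edgeR 4.0.16's quasi-likelihood test in R 4.3.3, fitting the 3 groups together over 7 libraries, with Benjamini-Hochberg adjustment over 16028 features (adjusted p under 0.05). CPM use TMM-scaled totals. Fold changes come from the fit, with a prior count of 2 for log2 CPM elsewhere. The test was tried on simulated counts first.

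The genes and lists were chosen with earlier results of these data known. Beyond the 9 genes, the text names per list the 3 largest rises and falls among genes called with no overlap between groups, Col2a1, Acan and Sox9, and 3 nearest profiles for 4 genes (mean log2 CPM of at least 1). Cdon, Gpr161, Ccnd2, Pde4d, Shh, Dhh, Sufu, Gnas, Col10a1, Arhgap9, Sost and Krt1 were named beyond this rule, after their values were seen. Alternatives were other scalings, DESeq2 1.42.0, limma-voom 3.58.1, filters, length-scaled TPM, the number series in the titles as covariate, and leaving out libraries. Replicate numbers follow accession order and pair nothing.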

Additional observations from a re-analysis of the deposited data

How the results depend on the processing

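For tenotomy against contralateral tendon, the 5 called genes of 8 became 3 with DESeq2 (Ptch1 0.118 and Gli2 0.0685 lost), 3 with length-scaled TPM (Gli2 0.0578 and Gli3 0.0629 lost), 4 with the number series in the titles as covariate (Ptch1 0.0550 lost), 5 with no filter on low counts (Ptch1 0.112 lost, Pth1r 0.0439 gained) and 0 at a threshold of 0.01, all as adjusted p. The share of all genes called, 29% in the main test, was 23.4% with DESeq2, 20.2% with length-scaled TPM, 34.8% with the covariate and 17.3% with no filter. The cause of these changes was not tested, beyond the stricter threshold itself. The 3 other scalings, limma-voom, a minimum count of 30 and leaving out the 5 most abundant features each gave 5. Leaving out 1 library gave 0 to 6 in the fit of all groups and 4 to 6 in fits of only the groups compared. Against uninjured tendon, leaving out 1 library gave 0 to 3 called for tenotomy (0 to 4 with only the groups compared) and 0 to 5 for contralateral (0 to 5). Length-scaled TPM raised the log2 difference of Ptch1 from 0.47 to 0.90 and of Gli2 from 0.81 to 1.45.

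Some differences that were not called changed sign. For tenotomy against contralateral, Pthlh was at -0.17 with the title series as covariate, and over libraries left out it ran from -0.32 to 0.51 (-0.31 to 0.48 with only the groups compared) and Hhip from -0.012 to 0.68. Against uninjured, leaving out libraries gave -0.0066 to 0.79 for Smo (-0.0098 to 0.77 with only the groups compared) and -0.38 to 0.63 for Pth1r (-0.39 to 0.61, and -0.21 without the second tenotomy library) at the tenotomy site. In contralateral tendon it gave -1.30 to 0.55 for Gli1 (-1.30 to 0.53) and -0.12 to 0.57 for Hhip (-0.14 to 0.56).

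Upper quartile scaling moved the median log2 difference of all genes between tenotomy and contralateral to 0.11, and library totals moved it to 0.15. The calls over all genes were 2178 higher and 2465 lower with TMM, 2633 and 2163 with upper quartile scaling, and 2505 and 2008 with library totals. Hhip and Pthlh had 4 to 22 counts per library, Gli1 14 to 28 outside the tenotomy site and the first uninjured library, which limits the precision of their values, and Ihh cannot be compared. No paired analysis was possible because replicate numbers follow accession order and the labels tie no contralateral library to a tenotomy library.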
